A study of Mus musculus with 6 samples.

Results

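Complement is a set of plasma and cell-surface proteins that tags microbes, debris and dying cells for uptake. Described here are 9 genes of the system that macrophages are known to use, found by their symbols among the 40213 gene rows of each deposited count file. They include C1qa, C1qb and C1qc, the chains of C1q, the recognition molecule of the classical pathway. C4b and C3 encode proteins that are cleaved and become bound to targets. Cfb and Cfp encode factor B and properdin of the alternative pathway. C3ar1 and C5ar1 encode receptors for the small fragments released from C3 and C5. Every one of the 9 genes had a count in each library, and 8 of them passed the filter on low counts and were among the 12893 genes tested. C4b did not.

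The cells were macrophages grown from bone marrow of C57BL/6 mice for 4 days with mouse macrophage colony-stimulating factor at 25 ng/ml and 10% fetal bovine serum. The 3 control samples received no particles, and the 3 MNP samples received 50 µg of polystyrene micro- and nanoplastics (MNP) for 24 h. The volume, the size of the particles and the source of each replicate (a culture or an animal of its own) are not stated, so p-values reflect the variation among these 6 samples alone, which may be technical. Total RNA was sequenced with a kit that primes along whole transcripts.

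In complement, C1q binds targets such as immune complexes and apoptotic cells and starts the classical route through its proteases and C4. C3 stands where all routes meet, and factor B, stabilised by properdin, amplifies C3 cleavage. The liver makes most plasma complement, while macrophages and dendritic cells are the main source of C1q and also make C3, factor B and properdin locally. The G protein-coupled receptors for C3a and C5a guide and activate myeloid cells.

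After MNP treatment, most of the complement components measured here fell and the receptor genes C3ar1 and C5ar1 rose slightly. All 3 chains of C1q and C3 fell, by between 1.35-fold and 1.94-fold. Cfb fell 2.80-fold at low counts, a call that was lost without control 1 (log2 -0.88), MNP sample 2 or MNP sample 3 and with limma-voom. The receptors C3ar1 and C5ar1 rose by 1.18-fold and 1.20-fold, calls that were lost when libraries were scaled by their totals alone. Cfp did not pass the test, and C4b did not pass the filter on low counts. Of the 8 tested genes, 5 were called lower, where 8.35% of all tested genes were called lower, and 2 were called higher, where 9.11% were (edgeR quasi-likelihood test, Benjamini-Hochberg adjusted p under 0.05 over all tested genes). The median log2 fold change of the 8 was -0.43, against -0.01 over all tested genes. The MNP libraries were all below the controls for 5 of the 8, as for 17.4% of all tested genes, and all above them for 2, as for 17.2%. Without overlap in either direction were 7 of the 8, and 34.6% of all tested genes. These genes were chosen with results of the same data known, so the counts describe them and are not an independent test.

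The C1q genes lie side by side on mouse chromosome 4 in the order C1qb, C1qc, C1qa, with no other protein-coding gene between them (GENCODE M21). Upstream sequences are shown for C1qb and C1qc, neighbours that fell by nearly the same amount, for C3, which had the largest decrease among the well-counted members, and for Cfp, which did not pass the test. RefSeq promoters (build GRCm38.p6, an older build than that of the counts) were found by symbol for 6 of the 9 genes, namely these 4, C3ar1 and C5ar1. The 250 bases before each start site read as follows, 5′ to 3′ on the strand of the gene, with matches to the core of the antioxidant response element in capitals.
C1qb (chr4:136886201-136886450, minus strand): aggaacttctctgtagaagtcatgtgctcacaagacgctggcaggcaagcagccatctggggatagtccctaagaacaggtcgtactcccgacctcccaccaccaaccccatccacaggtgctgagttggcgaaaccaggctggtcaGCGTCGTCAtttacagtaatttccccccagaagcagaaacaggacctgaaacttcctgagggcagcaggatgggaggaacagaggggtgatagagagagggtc
C1qc (chr4:136892915-136893164, minus strand): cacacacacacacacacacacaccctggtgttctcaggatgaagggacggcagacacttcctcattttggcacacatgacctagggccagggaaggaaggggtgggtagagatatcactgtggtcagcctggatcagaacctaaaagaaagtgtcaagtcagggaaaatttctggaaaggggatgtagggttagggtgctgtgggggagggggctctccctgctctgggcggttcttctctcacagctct
C3 (chr17:57228137-57228386, minus strand): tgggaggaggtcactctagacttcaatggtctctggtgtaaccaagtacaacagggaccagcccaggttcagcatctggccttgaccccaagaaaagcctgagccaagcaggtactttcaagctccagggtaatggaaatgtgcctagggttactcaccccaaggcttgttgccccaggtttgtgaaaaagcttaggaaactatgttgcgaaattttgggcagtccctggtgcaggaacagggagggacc
Cfp (chrX:20931556-20931805, minus strand): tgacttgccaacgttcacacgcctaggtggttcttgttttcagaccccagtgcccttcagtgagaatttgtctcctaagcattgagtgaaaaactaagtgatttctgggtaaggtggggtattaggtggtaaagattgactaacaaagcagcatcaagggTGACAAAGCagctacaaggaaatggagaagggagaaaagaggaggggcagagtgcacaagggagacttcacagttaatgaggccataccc
3 motifs were searched on both strands in windows of 300 bases, from 250 before to 50 after the start site. The core of the antioxidant response element (TGACNNNGC), which NRF2 binds, was found once in C1qb and once in Cfp. The C1qb match, 103 bases before the start, is on the opposite strand, so its capitals read GCGTCGTCA. The Cfp match, 90 bases before the start, is on the strand of the gene. The core occurs in 12.4% of all 32851 promoters searched. The interferon-stimulated response element (GAAANNGAAA, in 3.44% of promoters) and the STAT site (TTCNNNGAA, in 8.3%) had no match in any of the 6. No 2 matches overlapped. A match describes letters only, and C1qb fell while Cfp did not pass the test.

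Levels are given as scaled CPM, counts relative to library sizes adjusted by TMM factors. C1qa encodes the A chain of C1q. It stood at 75.4, 65.3 and 72.7 CPM in controls 1 to 3 and at 48.6, 46.4 and 45.7 CPM in MNP samples 1 to 3. The lowest control was well above the highest MNP sample. The means were 71.1 ± 5.19 and 46.9 ± 1.52 CPM (SD, n = 3 each), a 1.52-fold decrease (log2 fold change -0.60 ± 0.07 SE, edgeR adjusted p = 6.72e-05).

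C1qb, the B chain, had the highest counts of the C1q genes, 595, 528 and 599 CPM in the controls and 432, 392 and 449 CPM in the MNP samples. The groups were again separate, with control 2 and MNP sample 2 the lowest of each. The level fell 1.35-fold, from 574 ± 39.6 to 424 ± 29.5 CPM (SD, n = 3 each; log2 -0.44 ± 0.07, edgeR adjusted p = 0.000544). C1qc, the C chain, was at 236, 244 and 300 CPM in the controls and at 185, 184 and 208 CPM in the MNP samples. Control 3 was the highest library, and every MNP sample was below every control. C1qc fell 1.35-fold, from 260 ± 35.2 to 192 ± 13.3 CPM (SD, n = 3 each; log2 -0.43 ± 0.09, edgeR adjusted p = 0.00317).

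Summed over the chains, C1q was at 905 ± 67.2 CPM in controls and 664 ± 40.1 CPM in MNP samples (SD, n = 3 each). The make-up of that sum was close in both groups for C1qb and C1qc. C1qb gave 63.5% ± 2.04 of the C1q counts in controls and 63.9% ± 0.976 in MNP samples, and C1qc gave 28.7% ± 2.47 and 29.0% ± 1.02. C1qa gave 7.87% ± 0.424 and 7.09% ± 0.514 (SD, n = 3 each), and its lowest control (7.48%) was just above its highest MNP sample (7.46%).

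**Figure D1:**
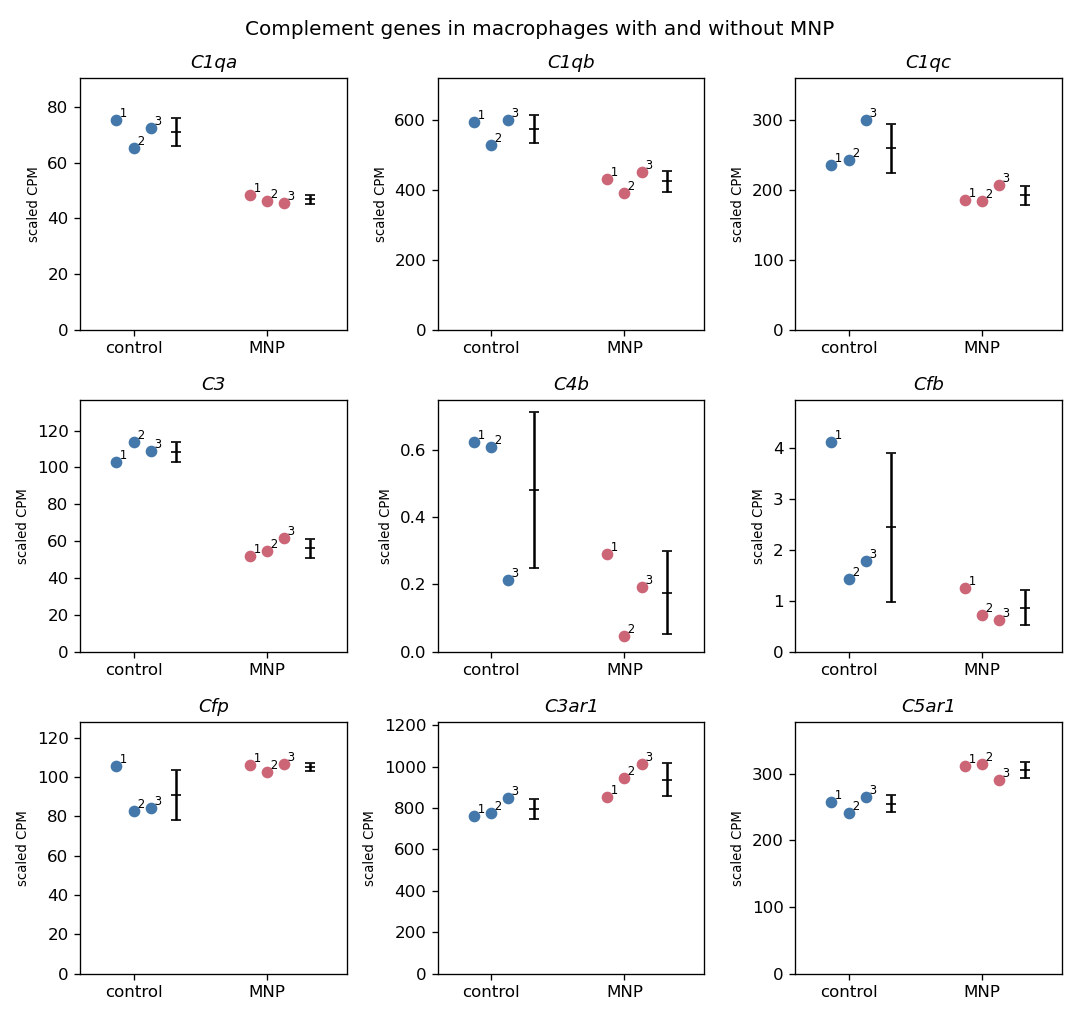
Scaled CPM (vertical axes, each from 0) of the 9 complement genes in each library, with replicate numbers beside the points; black marks are the mean and SD of the 3 libraries of a group. The C1q chains, C3 and Cfb are lower in every MNP sample than in any control, C3ar1 and C5ar1 are higher in every MNP sample, and Cfp and C4b overlap.

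C3 is the central component, whose cleavage yields the tag C3b and the fragment C3a. It was at 103, 114 and 109 CPM in the controls and at 52.1, 54.4 and 61.7 CPM in the MNP samples. Each group kept within a narrow range and the gap between them was wide. C3 fell 1.94-fold, from 109 ± 5.49 to 56.0 ± 5.03 CPM (SD, n = 3 each; log2 -0.95 ± 0.07, edgeR adjusted p = 9.98e-07). Only 4.11% of all tested genes had a lower log2 fold change.

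Cfb encodes factor B, the protease of the alternative pathway. Its levels were low, at 4.12, 1.43 and 1.78 CPM in the controls and 1.26, 0.721 and 0.621 CPM in the MNP samples, from 86, 33 and 42 counts and 26, 16 and 13 counts. Control 1 was far above the other libraries, and MNP sample 1 was close to control 2. The fitted decrease was 2.80-fold (log2 -1.49 ± 0.46, edgeR adjusted p = 0.0411), from 2.45 ± 1.46 to 0.866 ± 0.342 CPM (SD, n = 3 each). The size and the call rest on control 1: without it the log2 fold change was -0.88 and the adjusted p 0.233. The call was also lost without MNP sample 2 (adjusted p = 0.144) or MNP sample 3 (0.148), and with limma-voom (0.0720). The annotation places the gene Gm20547, which runs across Cfb and its neighbour C2 on the same strand, over Cfb, so reads of the 2 genes cannot be told apart.

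C4b, the C4 protein of the classical and lectin routes, had 13, 14 and 5 counts in the controls and 6, 1 and 4 counts in the MNP samples. The groups overlapped, and 3 counts correspond to between 0.127 and 0.145 CPM in these libraries. C4b was not tested in the main fit. In the fit with no filter it did not pass (log2 -1.40 ± 0.95 SE, edgeR adjusted p = 0.457). C4b also entered the fits without control 3 or without MNP sample 1, 2 or 3, and its values there are not reported here. Its near-identical copy C4a had between 1 and 8 counts in each library, and the split of reads between the copies is uncertain.

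Cfp encodes properdin, which stabilises the C3 convertase of the alternative pathway. It was at 106, 82.7 and 84.2 CPM in the controls and at 106, 102 and 106 CPM in the MNP samples. Control 1 lay among the MNP samples and the other two controls below them. The difference did not pass (90.9 ± 12.9 and 105 ± 2.17 CPM, SD, n = 3 each; log2 0.21, 95% interval 0.03 to 0.39, edgeR adjusted p = 0.112). Without control 1 the log2 difference was 0.34 and it passed (adjusted p = 0.000930).

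C3ar1, the receptor for C3a, was among the most highly counted genes of these cells, with only 0.876% of tested genes above it in the controls. It was at 760, 775 and 850 CPM in the controls and at 855, 945 and 1012 CPM in the MNP samples. Control 3 and MNP sample 1 were nearly equal, and the groups did not overlap. C3ar1 rose 1.18-fold, from 795 ± 48.5 to 937 ± 78.3 CPM (SD, n = 3 each; log2 0.24 ± 0.07, edgeR adjusted p = 0.0316). The call was lost without control 2 (adjusted p = 0.110), MNP sample 2 (0.103) or MNP sample 3 (0.138).

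C5ar1, a receptor for C5a, was at 258, 241 and 266 CPM in the controls and at 311, 314 and 291 CPM in the MNP samples. Every MNP sample was above every control. C5ar1 rose 1.20-fold, from 255 ± 12.9 to 306 ± 12.5 CPM (SD, n = 3 each; log2 0.26 ± 0.06, edgeR adjusted p = 0.00730). Both receptor calls depended on the scaling. With library totals alone the differences were 0.15 for C3ar1 (adjusted p = 0.128) and 0.17 for C5ar1 (0.0521), and the calls over all genes went from 1174 higher and 1076 lower to 757 higher and 1941 lower. The ratio of C3 to C3ar1 counts within a library, which no scaling touches, was 0.128 to 0.147 in controls and 0.0576 to 0.0610 in MNP samples. C3 itself fell (log2 -0.95), so this ratio does not show whether C3ar1 rose.

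**Figure D2:**
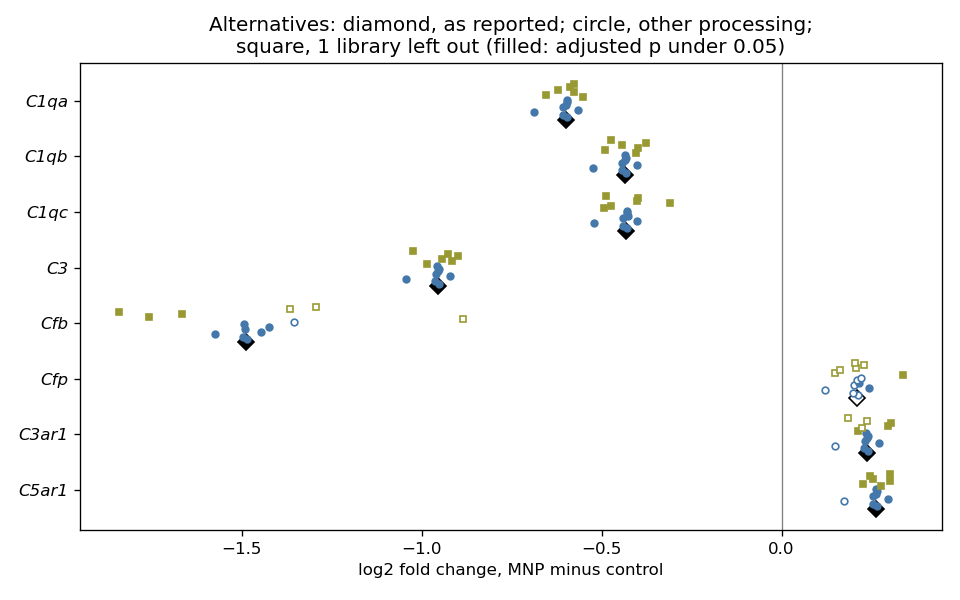
Log2 fold change of the 8 tested genes (horizontal axis, MNP minus control) as reported (diamonds), under other processing (circles) and with 1 library left out (squares), filled where the adjusted p was under 0.05. The C1q chains and C3 are filled throughout, C5ar1 is open only with library totals (0.17), and Cfb spreads from -1.84 to -0.88.

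Between genes, levels were compared as scaled CPM per kb of the longest coding transcript (GENCODE M21). In controls the order was C1qb (528 CPM per kb), C1qc (216), C3ar1 (185), C5ar1 (100.3), C1qa (68.4), Cfp (55.5), C3 (21.1), Cfb (0.889) and C4b (0.0895). C1qc and C3ar1 overlapped over the 3 controls, as did C1qa and Cfp. In MNP samples these neighbours changed places. C3ar1 was at 199 to 235 CPM per kb and C1qc at 153 to 173. The place of C1qc depends on the length chosen. Its exons together cover 1931 bases, against 1203 in the transcript used, and a longer length lowers every C1qc value. Cfp was at 62.6 to 65.1 CPM per kb and C1qa at 43.9 to 46.8. The C1qa level was far below that of the other chains, with 8.07 ± 0.174 C1qb counts per C1qa count in controls and 9.05 ± 0.714 in MNP samples (SD, n = 3 each), although both transcripts are about as long (1088 and 1040 bases). GENCODE M21 lists no gene overlapping any C1q gene.

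**Figure D3:**
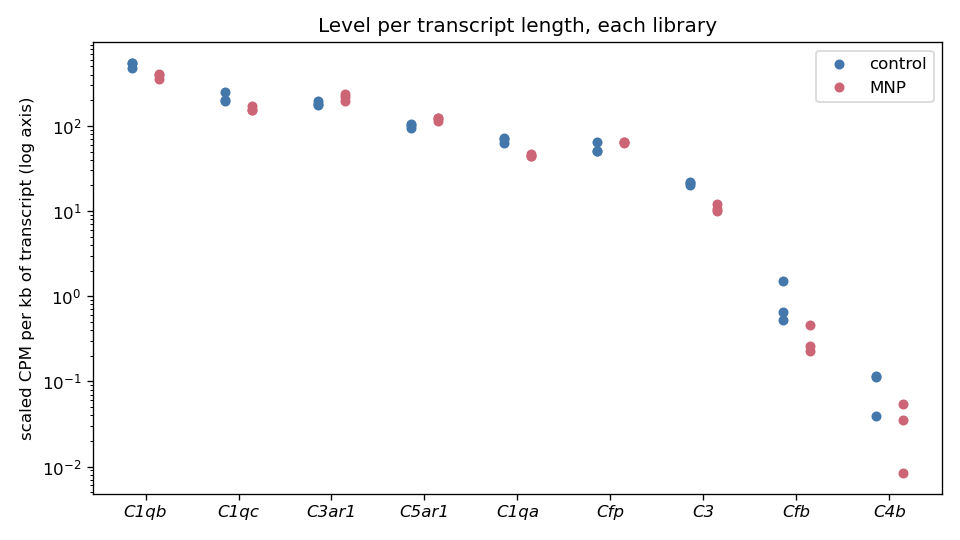
Scaled CPM per kb of transcript (vertical log axis) of the 9 genes in each library, ordered by the control mean. C1qb leads at 528 CPM per kb in controls, and C4b is last at 0.0895.

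A further 56 complement genes were taken from fixed lists. Of these, 22 were tested, 5 rose and 7 fell, and their median log2 fold change was -0.07. Here too 8.35% of all tested genes were lower and 9.11% higher. None of the 8 genes for factor D (Cfd) and the terminal proteins was tested, with at most 9 counts in any library and 0 counts of Cfd in all 6. Of 5 tested early proteases and lectins, 2 fell and 1 rose. C2 (0.897 to 0.330 CPM, edgeR adjusted p = 0.0553) and Fcnb (0.960 to 0.599 CPM, adjusted p = 0.341) were lower but did not pass. C1ra, a C1r protease, fell 2.24-fold from 2.87 ± 0.824 to 1.28 ± 0.464 CPM (SD, n = 3 each; edgeR adjusted p = 0.0341), and lost its call without control 2 (0.0610), control 3 (0.157), MNP sample 2 (0.138) or MNP sample 3 (0.0972). The ficolin Fcna, a lectin pathway recognition molecule that overlaps the antisense gene Fcnaos, fell 2.15-fold from 5.56 ± 0.687 to 2.59 ± 0.0669 CPM. Colec12, a collectin that acts as a scavenger receptor, rose 1.21-fold from 47.6 ± 4.91 to 57.9 ± 3.04 CPM (edgeR adjusted p = 0.0349), and lost its call with library totals and without control 1, control 2, MNP sample 2 or MNP sample 3 (adjusted p 0.0686 to 0.139).

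Among 7 tested regulators, which protect host cells, 2 fell and 1 rose, where 8.35% of all tested genes fell and 9.11% rose. Cd55, which speeds the decay of convertases, had 37, 57 and 33 counts in the controls and 10, 3 and 10 in the MNP samples. It fell 5.13-fold (log2 -2.36 ± 0.49, edgeR adjusted p = 0.00450), and an antisense gene, Gm16083, overlaps it. Cd59a and Cd59b, similar copies of the inhibitor of the membrane attack complex, differed in direction. Cd59a fell 1.33-fold from 18.0 to 13.6 CPM (edgeR adjusted p = 0.0271), whereas Cd59b rose from 4, 1 and 0 counts to 12, 15 and 16 counts (adjusted p = 0.0140). Both lost their calls without control 2, control 3, MNP sample 2 or MNP sample 3 (adjusted p 0.0600 to 0.146), and the split of reads between the copies is uncertain. The convertase regulator Cr1l did not pass (57.0 ± 3.27 and 64.7 ± 1.73 CPM, SD, n = 3 each; edgeR adjusted p = 0.0889).

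Of 10 tested complement receptors outside the 9 genes, 3 rose and 3 fell, where 9.11% of all tested genes rose and 8.35% fell. C5ar2, another receptor for C5a, was at 16.8 ± 2.05 and 18.8 ± 1.79 CPM (SD, n = 3 each), and the groups overlapped. It did not pass (log2 0.16, 95% interval -0.09 to 0.41, edgeR adjusted p = 0.380). Vsig4, a macrophage receptor for C3b and iC3b, had 44, 155 and 139 counts in the controls and 23, 15 and 10 in the MNP samples. It fell 6.50-fold, from 4.91 ± 2.47 to 0.755 ± 0.324 CPM (SD, n = 3 each; log2 -2.70 ± 0.44, edgeR adjusted p = 0.000709), with control 1 well below the other controls. Itgb2, the shared beta chain of complement receptors CR3 and CR4, rose 1.36-fold from 1306 ± 116 to 1771 ± 90.5 CPM (edgeR adjusted p = 0.000583). Its alpha chain partners did not pass. Itgam, of CR3, was at 888 ± 32.7 and 906 ± 20.5 CPM (log2 0.03, 95% interval -0.09 to 0.15, and -0.06 with library totals), and Itgax, of CR4, was at 418 ± 39.1 and 366 ± 18.6 CPM (edgeR adjusted p = 0.0805, but 0.0123 with library totals and 0.0489 with DESeq2).

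Proteins proposed as C1q receptors or partners differed in direction. Cd93 fell 1.21-fold from 1100 ± 45.1 to 909 ± 6.39 CPM, while Lrp1 rose 1.24-fold from 1725 ± 131 to 2147 ± 137 CPM and C1qbp rose 1.30-fold from 44.8 ± 2.13 to 58.4 ± 1.44 CPM (SD, n = 3 each; edgeR adjusted p 0.00176 to 0.00570). Calreticulin (Calr) was at 1625 ± 125 and 1847 ± 126 CPM and did not pass (0.0890, but 0.0363 with DESeq2, 0.00667 with no filter and 0.00944 without control 1). The chemerin receptor Cmklr1, a relative of the C3a and C5a receptors, fell 1.67-fold from 17.5 ± 2.18 to 10.5 ± 1.31 CPM.

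**Figure D4:**
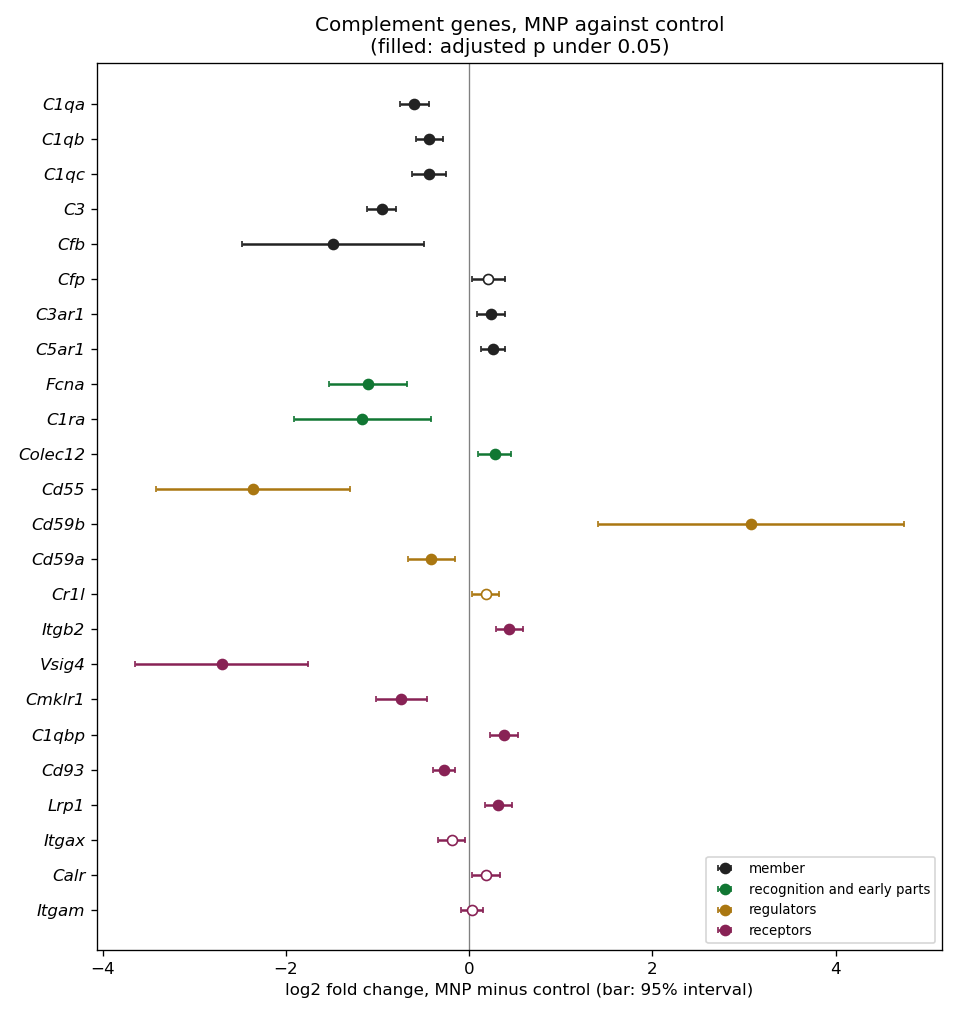
Log2 fold change (horizontal axis, MNP minus control, bars 95% intervals) of the 8 tested genes and of complement genes named beside them. C2, Fcnb and C5ar2 are not shown. Points are filled where the adjusted p was under 0.05. C3 stands at -0.95 with a short interval, Vsig4 at -2.70, and the receptor genes Itgb2, Lrp1 and C1qbp lie above 0.

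Transcription factors known to act on complement genes were a further fixed list, and 5 of 10 fell (8.35% of all tested genes did) and 0 rose (9.11% of all tested genes did) at an adjusted p under 0.05 in the edgeR test (0 rose with DESeq2 and limma-voom, and 1, Cebpb, had an unadjusted p under 0.05 and passed with no filter and without control 3). Irf1, which carries interferon signals to genes such as Cfb, fell 2.05-fold from 66.4 ± 6.44 to 32.4 ± 2.52 CPM (SD, n = 3 each). Maf fell 1.86-fold from 249 ± 24.9 to 134 ± 10.4 CPM, and Nr1h3, which encodes LXR alpha, 1.85-fold from 29.6 ± 4.51 to 16.0 ± 0.907 CPM. Nfkb1 fell 1.22-fold. Spi1 (125 ± 2.51 and 119 ± 2.51 CPM), Irf8 (log2 -0.09, 95% interval -0.21 to 0.02, but called lower with library totals), Cebpb and Rela did not pass. Any part of these factors in the changes of the complement genes was not tested.

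The genes whose profile over the 6 libraries was nearest to a complement gene were found by the root mean square distance of log2 CPM, each centred on its mean, among 9535 genes with at least 5 CPM. For C1qa these were Tbc1d8 (distance 0.04), Slc31a2 (0.05) and Tent5a (0.05). C3 had the RNA sensor Ifih1 (0.06), the mannose receptor Mrc1 (0.06) and the class I gene H2-Q4 (0.08) nearest to it, the last of a family of near-identical copies. Nearest to C3ar1 were Arhgdib, Msh6 and Armh3 (0.02 to 0.03). The distance includes the difference between the groups, so a like difference follows from the choice.

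Library totals ran from 20262859 to 23042146 counts, and the 9 genes took 0.212% to 0.234% of them in controls and 0.194% to 0.208% in MNP samples. More genes had a count in the controls (20222 to 24062, the highest in control 1, on which the calls of Cfb and Cfp turn) than in the MNP samples (18240 to 18672), and the TMM factors were 1.02 to 1.04 and 0.958 to 0.978. Mitochondrial genes took 2.19% to 3.35% of counts in the controls, the least in control 1, and 3.24% to 3.72% in the MNP samples. Macrophage markers were high in every library. The 8 listed genes summed to between 18935 and 19643 CPM in controls and between 16837 and 17858 CPM in MNP samples. The sum was mostly Lyz2 (14779 to 13152 CPM). Of the 8, 4 (Adgre1, Mertk, Lyz2, Fcgr1) fell, by 1.12-fold to 1.42-fold, against 8.35% of all tested genes. The other 4 were not called. Cd68 (450 to 534 CPM), Cd14 (158 to 169 CPM) and Itgam (888 to 906 CPM) were higher, and Csf1r (1400 to 1337 CPM) was lower. None of the 8 was at 0. Markers of other cells summed to less in the MNP samples for monocytes (5 genes, 88.0 to 98.0 against 53.6 to 59.9 CPM), dendritic cells (8 genes, 4.75 to 7.96 against 2.44 to 4.35 CPM), erythroid cells and megakaryocytes (6 genes, 16.3 to 23.6 against 11.7 to 13.4 CPM) and endothelium (5 genes, 17.0 to 20.5 against 13.0 to 15.9 CPM). B cell markers were also lower (5 genes, 1.31 to 2.26 against 0.586 to 1.15 CPM). The endothelial sum was mostly Kdr (18.1 to 13.1 CPM). At low counts, Cdh5 and Egfl7 were higher and Tie1 and Emcn lower. The sum for erythroid cells and megakaryocytes was mostly Pf4 (16.0 to 11.2 CPM, not called) and Itga2b (4.38 to 0.903 CPM). Marker sums were higher for osteoclasts (5 genes, 64.7 to 93.6 against 101.5 to 104.8 CPM) and mast cells and basophils (5 genes, 8.63 to 11.9 against 16.0 to 19.7 CPM). Of the 4 tested osteoclast markers only Ctsk was called (29.3 to 50.4 CPM), and Ocstamp was lower (1.73 to 1.26 CPM, not called). The mast cell and basophil sum was mostly Kit (9.90 to 16.8 CPM). At low counts, Cpa3 and Ms4a2 were lower and Mcpt8 and Fcer1a higher. Ranges overlapped for neutrophils (9 genes, 208 to 293 and 198 to 230 CPM). Of their 8 tested markers 4 fell, among them S100a9 (106 to 58.8 CPM) and Mpo (13.5 to 7.72 CPM), and 1, Mmp8, rose (53.6 to 83.1 CPM). Of all tested genes, 8.35% fell and 9.11% rose. T and NK cell markers summed to at most 0.565 CPM (6 genes, Cd3e and Ncr1 at 0). In bulk RNA, fewer cells of a type and less RNA per cell cannot be told apart, and the part of these shifts in the complement results was not tested. Stromal cells, which also make C1r, C3 and C4, had little marker RNA in either group, with 8 genes summing to at most 2.88 CPM.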

How the data were processed

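The authors deposited 1 file per library with whole-number counts by gene symbol. The tools named in the submitters' processing notes are STAR, Salmon, fastp and GATK, without their roles, and the build is GRCm39. Annotation, strand setting and any use of molecular identifiers are not stated there, so a gene and its antisense or overlapping partner cannot be told apart. Replicates differed by more than counting noise in every pair (chi-square per degree of freedom 6.65 to 17.6).

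Genes were tested with edgeR 4.0.16 (R 4.3.3), TMM factors, the default filter and the quasi-likelihood F test, over all tested genes at an adjusted p of 0.05. The SE was obtained as |log2 fold change| divided by the root of F, and profile distances used log2 CPM with a prior count of 2. The steps were tested on simulated data. Alternatives were RLE, upper-quartile and total scaling, no filter, a filter at 1 CPM in every library of a group, a replicate block, DESeq2 1.42.0, limma-voom (limma 3.58.1), and omission of each library. Genes named are the 9 members, called genes (up to 6 by p) and those of at least 50 CPM from each further list, and the 3 nearest profiles of C1qa, C3 and C3ar1. Some of these are not reported here. C2, C4a, C5ar2, Fcnb, Rela and the marker genes fall outside this rule and were chosen after their values were seen. Members and lists were chosen with earlier results of these data known.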

Additional observations from a re-analysis of the deposited data

How the results depend on the processing

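All 112 values of the 8 tested members under the alternatives kept their direction, and 100 of them also kept their side of the threshold. The C1q chains and C3 passed in every alternative. With library totals alone, C3ar1 (0.15) and C5ar1 (0.17) lost their calls, members called higher went from 2 to 0, and all genes called were 757 higher and 1941 lower in place of 1174 and 1076. Cfb lost its call with limma-voom (-1.36). Cfp passed with no filter (0.24), where 1 transcription factor was called higher in place of 0. Leaving out each library in turn gave -1.84 to -0.88 for Cfb, 0.15 to 0.34 for Cfp, 0.18 to 0.30 for C3ar1, 1 to 3 members higher, 3 to 5 other complement genes higher, 0 to 1 transcription factor higher and 672 to 1004 genes lower, the lowest without MNP sample 2. The cause was not tested for the changed processing, and fewer samples entered each fit without a library. Itgam reversed with library totals (-0.059), where it did not pass either way. Of 489 values of other named genes, 453 kept direction and call, 21 lost the call and 14 gained one.

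The labels share replicate numbers, but samples of the same number did not deviate together (correlations 0.09, 0.03 and -0.02). With the replicate block, Cfp passed (log2 0.22, edgeR adjusted p = 0.0407), as did Itgax (0.0118), Calr (0.0275) and Msh6 (0.0461), members called higher went from 2 to 3, and the calls over all genes were 1432 higher and 1254 lower. Counts near the limit of 3 per library bound what can be said of C4b and Cd59b.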

Other observations

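Several plasma-type complement genes had their highest counts in a single MNP library. The counts of Vtn (vitronectin) in MNP samples 1 to 3 were 42, 5 and 6, against 3, 11 and 5 in the controls, and those of Serping1 (the C1 inhibitor) were 32, 5 and 0, against 6, 9 and 2. Masp2, a lectin pathway protease, had 10, 4 and 3 counts in the MNP samples and 0 in each control. The gene Tardbp overlaps Masp2 on the other strand, so reads of the 2 genes cannot be told apart. Cpn2 had its highest count in control 1, with 15, 4 and 0 counts in the controls and 1, 2 and 0 in the MNP samples. Vtn, Serping1, Masp2 and Cpn2 did not pass the filter on low counts, and they were singled out after their values were seen.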
